A study of Mus musculus with 9 samples.

Results

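The Notch pathway genes examined here were 10 genes with a known role in the pathway, taken from the 46078 genes counted in each library: the 4 receptors Notch1, Notch2, Notch3 and Notch4, the 4 ligands Jag1, Jag2, Dll1 and Dll4, and the 2 target genes Hes1 and Hey1. They were chosen by their role, with earlier results of these data known. The RNA-seq data comprise 9 libraries of EGFP-SSCs, a single wild-type mouse line of spermatogonial stem cells (SSCs) that carries green fluorescent protein, 3 biological replicates each for 0 h, 24 h and 48 h. At 0 h the SSCs were kept on mitomycin C-treated mouse embryonic fibroblasts in medium with GDNF, basic fibroblast growth factor and epidermal growth factor. At 24 h and 48 h they had been co-cultured, in equal parts, with somatic cells from the testes of busulfan-treated mice aged 3 to 7 days, and were then sorted by their green fluorescence. The co-culture medium held activin A, retinoic acid, testosterone, follicle-stimulating hormone, bone morphogenetic proteins, knockout serum replacement and bovine pituitary extract, so the somatic cells, the medium and the loss of the feeder layer changed together and cannot be told apart.

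Notch receptors are single-pass membrane proteins that are activated by ligands of the Jagged and Delta-like families on a neighbouring cell. Ligand binding exposes the receptor to cleavage by ADAM proteases and then by γ-secretase, and the freed intracellular domain joins the DNA-binding protein RBPJ and a Mastermind protein to switch on genes of the Hes and Hey families. In the testis the pathway is best known for signals from germ cells to Sertoli cells, in which JAG1 on spermatogonia activates NOTCH1 on Sertoli cells, the source of GDNF for stem cells.

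Of the 10 genes, Dll1 was upregulated after 24 h of co-culture and Notch1, Jag1 and Hes1 were downregulated, while 6 did not pass the test (Benjamini-Hochberg adjusted p up to 0.05 in the quasi-likelihood test of edgeR). That is 4 of 10 genes, in a comparison in which 25.5% of all 17592 genes tested were called. At 48 h against 0 h, 5 of 10 were called, the same 4 and Dll4, which was lower, against 31.6% of all genes. Between 24 h and 48 h, 4 of 10 were called, with Dll1 higher and Notch1, Jag2 and Hes1 lower, against 21.3% of all genes. In both comparisons with 0 h, the falls (3 and 4 genes) outnumbered the single rise, and among all genes 14.2% fell and 11.4% rose at 24 h, and 18.5% fell and 13.0% rose at 48 h. Between 24 h and 48 h, 12.7% of all genes fell and 8.61% rose. The genes called against 0 h had all changed at least 2-fold, as had 13.2% of all genes at 24 h and 16.7% at 48 h, while the 4 called between 24 h and 48 h had all changed less, where 2.97% of all genes passed both limits. By the libraries alone, 7, 5 and 5 of the 10 genes had groups that did not overlap in the 3 comparisons, beside 43.1%, 47.7% and 38.5% of all genes. The median size of change over the 10 genes, on the log2 scale, was 0.72, 0.82 and 0.36 in the 3 comparisons, beside 0.36, 0.42 and 0.22 over all genes tested. Log2 fold changes of single genes are given ± standard error, and levels as CPM, the counts of a gene per 1000000 counts of its library after TMM normalisation. These comparisons share libraries and are not independent of each other.

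**Figure D1:**
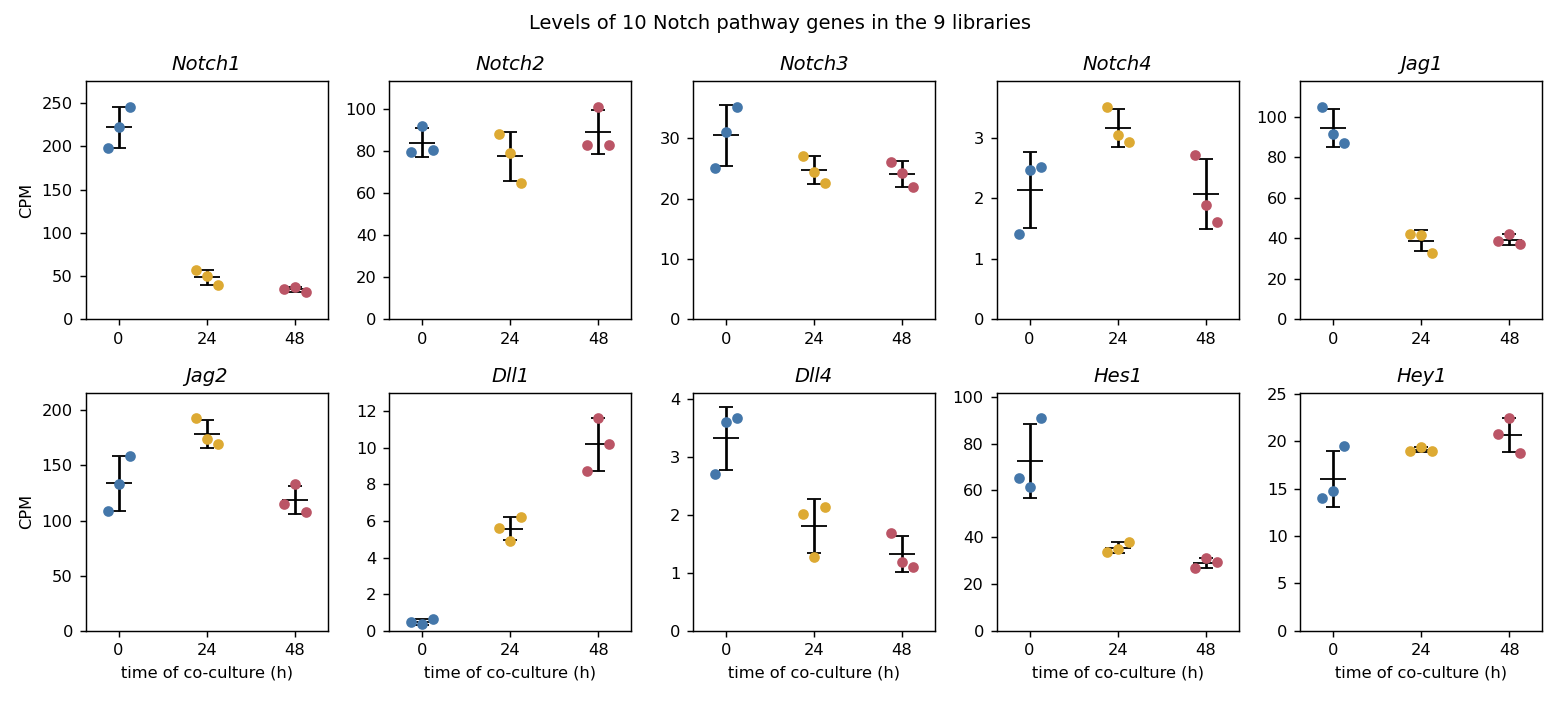
CPM of the 10 genes in each library against the time of co-culture in hours, with points for the 3 libraries of a time point and bars for the mean ± SD. The points of Notch1, Jag1 and Hes1 at 24 h and 48 h lie below all points at 0 h, those of Dll1 lie above, and those of Notch2 and Notch3 overlap between 0 h and 48 h.

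Among the receptors, Notch1 fell at each step and the other 3 did not pass the test. Notch1 (ENSMUSG00000026923, GRCm38 chromosome 2, 26457903 to 26516663) was at 199, 222 and 246 CPM in the 3 libraries at 0 h, at 56.9, 49.6 and 39.3 CPM at 24 h, and at 34.6, 37.5 and 31.6 CPM at 48 h. All co-cultured libraries lay far below all 0 h libraries, and the 48 h libraries lay just below those of 24 h. The level was 4.57-fold lower at 24 h (log2 fold change -2.19 ± 0.16, adjusted p = 0.00011) and 6.40-fold lower at 48 h (-2.68 ± 0.12, adjusted p = 1.5e-05, edgeR's quasi-likelihood test, Benjamini-Hochberg). The fall between 24 h and 48 h was smaller (-0.48 ± 0.12, adjusted p = 0.0229, edgeR). Its call was lost without 24 h replicate 1, without 24 h replicate 2, without 48 h replicate 1 or without 48 h replicate 3 (edgeR, Benjamini-Hochberg adjusted p from 0.0626 to 0.0863), and with all 9 libraries in 1 fit (0.0756). In cells sequenced in bulk, fewer cells of a type and less RNA per cell cannot be told apart.

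Notch2 (ENSMUSG00000027878, chromosome 3, 98013527 to 98150361), a receptor expressed in many tissues, was at 79.8, 92.3 and 80.5 CPM at 0 h, 88.3, 79.4 and 65.1 CPM at 24 h, and 83.0, 101 and 83.1 CPM at 48 h. The libraries of the 3 time points overlapped, and the differences from 0 h on the log2 scale were -0.12 ± 0.14 and 0.087 ± 0.12. Notch3 (ENSMUSG00000038146, chromosome 17, 32120820 to 32166852), best known from vascular smooth muscle, ran from 25.1 to 35.3 CPM at 0 h, 22.5 to 27.1 at 24 h and 21.9 to 26.1 at 48 h. Its groups overlapped too, and it differed by -0.30 ± 0.15 and -0.33 ± 0.15 (edgeR, Benjamini-Hochberg adjusted p = 0.191 and 0.13). Both differences of Notch3 were called when 0 h replicate 1 was left out, at -0.41 and -0.45 (adjusted p = 0.0493 and 0.0301 by edgeR), and the 24 h difference was also called with offsets for GC content and length (-0.34, edgeR, adjusted p = 0.0332).

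Notch4 (ENSMUSG00000015468, chromosome 17, 34564268 to 34588503), a receptor known from endothelium, was the least abundant receptor, with 23 to 70 reads per library. It was at 1.41, 2.47 and 2.52 CPM at 0 h, 3.52, 3.04 and 2.92 CPM at 24 h, and 2.72, 1.90 and 1.60 CPM at 48 h. The 24 h libraries lay above all others, but no comparison was called (log2 fold change 0.56 ± 0.28 at 24 h and -0.041 ± 0.33 at 48 h against 0 h, and -0.60 ± 0.25 between 24 h and 48 h).

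Levels of different genes can be set side by side only per length, so CPM were divided by the kilobases of exon of a gene (FPKM, union of its exons). On this scale, Notch1 made up 56.8% ± 1.81 (SD, n = 3) of the summed receptor FPKM at 0 h, 24.2% ± 0.985 at 24 h and 17.4% ± 0.266 at 48 h. Notch2 went from 28.5% ± 2.74 to 51.2% ± 0.564 and 59.3% ± 2.75, so the most abundant receptor changed from Notch1 to Notch2. Notch3 went from 13.7% ± 1.11 to 21.8% ± 1.27 and 21.4% ± 1.99, and Notch4 held under 4% in every library. The summed FPKM of the receptors was 27.5 ± 2.51 at 0 h, 14.1 ± 2.02 at 24 h and 13.9 ± 1.24 at 48 h. When the longest transcript was taken as the length, Notch1 held 65.8%, 31.7% and 23.6%, and Notch2 22.6%, 46.0% and 54.9%, with the same change of order. Shares of a sum depend on each other, so the share of Notch2 was higher while its own level was not called different.

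**Figure D2:**
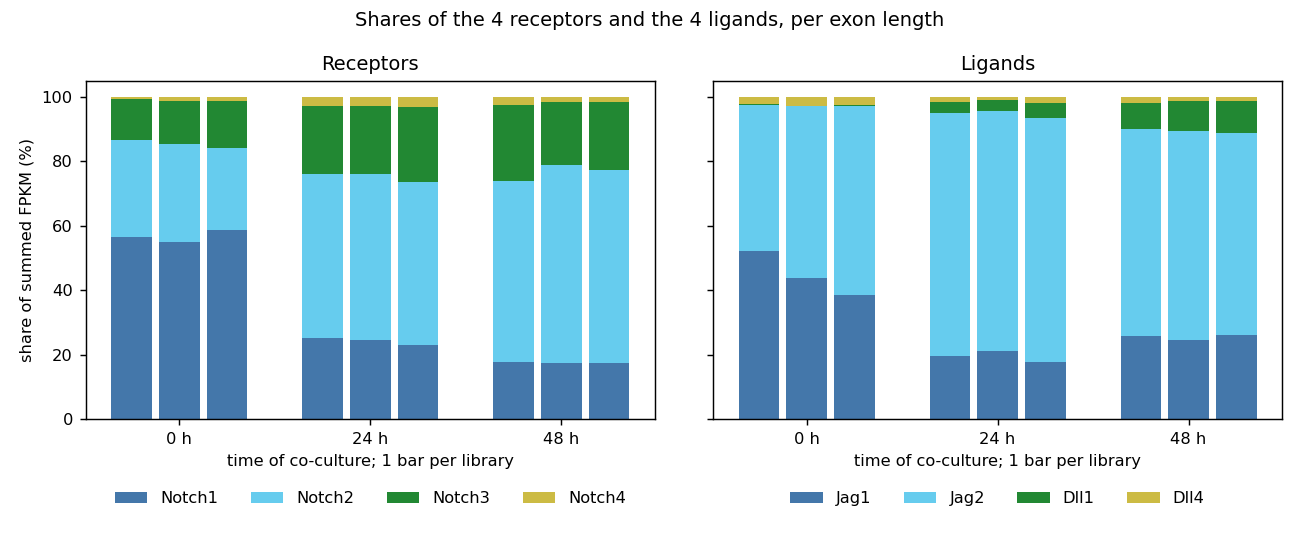
Share (%) of each of the 4 receptors (left) and 4 ligands (right) in the summed FPKM of its family, 1 bar per library, grouped by time of co-culture. Notch1 fills 55.1% to 58.7% of the receptor bars at 0 h and 17.3% to 17.7% at 48 h, and Dll1 goes from 0.229% to 0.399% of the ligand bars at 0 h to 8.07% to 9.83% at 48 h.

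The promoters of Notch1, which fell, and of Notch2, which did not pass the test, are shown so that their letters can be compared. They come from the 250 bases before the RefSeq start in GRCm38.p6, less the bases that GENCODE places in an exon of the gene, and are written 5′ to 3′ on the strand of the gene. That of Notch1 lies within the span of the gene in GENCODE, ahead of a start inside it. Capitals mark GGGCGG, the letters of the GC box read by SP1, or its reverse complement.
Notch1, chr2:26503825-26504072, minus strand: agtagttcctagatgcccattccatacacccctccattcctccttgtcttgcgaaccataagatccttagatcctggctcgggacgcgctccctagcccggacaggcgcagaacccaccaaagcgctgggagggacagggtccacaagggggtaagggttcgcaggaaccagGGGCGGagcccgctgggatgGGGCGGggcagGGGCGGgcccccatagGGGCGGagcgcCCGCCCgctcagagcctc
Notch2, chr3:98013288-98013526, plus strand: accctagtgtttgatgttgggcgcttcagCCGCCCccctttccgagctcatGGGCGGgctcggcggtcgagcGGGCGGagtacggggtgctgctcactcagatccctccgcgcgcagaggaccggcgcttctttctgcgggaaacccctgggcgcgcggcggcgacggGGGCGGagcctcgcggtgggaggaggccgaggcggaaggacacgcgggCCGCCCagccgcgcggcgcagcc
Both windows held 5 GC boxes, on either strand, and those of Notch1 lay 78 to 20 bases before the start. The letters GGGCGG occur at least once in 32.7% of the 32851 RefSeq promoters of the same length, and 2 or more times in 16.7%. GC boxes also lay in the windows of Jag2, Notch3 and Dll4, and not in those of Jag1, Notch4 and Dll1. The letters TGGGAA, the core read by RBPJ, were searched on both strands and lie in 21.6% of all promoters, and in none of the 9 windows of the 8 genes that matched by symbol. Hes1 and Hey1 were not among these. Letters in a window are a description, and their absence says nothing about binding of the factor elsewhere.

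Among the ligands, Dll1 rose from a level near 0 and Jag1 fell, and Jag2 had the highest mean of the 4 per length at each time, although its libraries overlapped with those of Jag1 at 0 h. Dll1 (ENSMUSG00000014773, chromosome 17, 15367354 to 15376872), a Delta-like ligand, was counted 8, 7 and 13 times at 0 h, 112, 92 and 127 times at 24 h, and 170, 263 and 204 times at 48 h. In CPM these are 0.492, 0.346 and 0.654 at 0 h, 5.63, 4.91 and 6.19 at 24 h, and 8.71, 11.6 and 10.2 at 48 h. Each time point lay above the one before in every library. Dll1 was 11.1-fold higher at 24 h (log2 fold change 3.47 ± 0.29, adjusted p = 0.000212) and 20.3-fold higher at 48 h (4.34 ± 0.28, adjusted p = 5e-05, edgeR's quasi-likelihood test, Benjamini-Hochberg). The rise from 24 h to 48 h was 1.83-fold (0.87 ± 0.15, adjusted p = 0.00412, edgeR). The antisense gene A930024N18Rik shares 867 bases of exon, 20.5% of the Dll1 exons, and was counted 0 to 9 times per library. The strand setting of the counting is not given in the sources used here, so reads from the shared bases cannot be assigned to either strand.

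The summed markers of stromal, myoid, Sertoli and Leydig cells were higher at 24 h and 48 h than at 0 h, as Dll1 was. Those of endothelial cells were lower, and those of macrophages overlapped between time points. The summed CPM of 7 stromal markers, led by Col1a1 and including the other collagens of fibroblasts, ran from 260 to 352 at 0 h, 2147 to 2420 at 24 h and 2778 to 3039 at 48 h. The 6 markers of peritubular myoid cells, led by the smooth muscle actin Acta2, summed to 13.7 to 15.8 CPM, 149 to 207 CPM and 267 to 317.5 CPM. The sums of 8 Sertoli markers, led by Gata4, ran from 18.0 to 19.0 CPM at 0 h, 36.3 to 49.7 at 24 h and 46.15 to 47.3 at 48 h, and of 6 Leydig markers, led by Cyp11a1, from 4.53 to 6.77, 25.2 to 38.5 and 25.6 to 31.9. Of the 7 Sertoli markers tested at 24 h, 5 were higher and 2 lower than at 0 h, and the sum at 0 h came mostly from Sox9, at 11.7 CPM there and 6.68 CPM at 24 h. The defining Sertoli gene Fshr and the Leydig genes Insl3 and Hsd3b1 had 0 counts in all 0 h libraries, as did the stromal gene Tcf21 and the macrophage gene C1qa, and Fshr and Lhcgr had at most 3 counts in any library. The 8 germ cell markers, led by Dazl, were present throughout, at 2241 to 3308 CPM at 0 h, 2905 to 3067 at 24 h and 3074 to 3316 at 48 h. The 6 macrophage markers, led by Cd14, summed to 2.47 to 6.15 CPM over all libraries. The part of these cells in the rise of Dll1, or in any other change described here, was not tested.

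**Figure D3:**
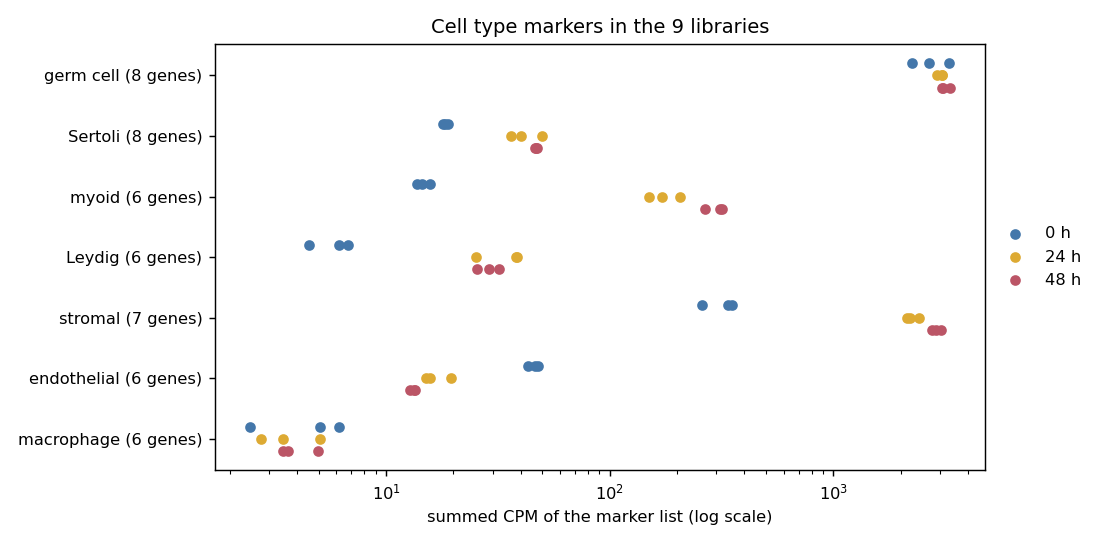
Summed CPM (log axis) of 7 lists of cell type markers in each library, coloured by time point. The germ cell sums overlap between time points, the stromal and myoid sums at 24 h and 48 h lie above those at 0 h, and the endothelial sums lie below.

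A promoter window of Dll1 is shown because this gene rose most among the 10. The window shown is the one that held motif letters. Another RefSeq start of Dll1 has its window ahead of the gene's span, with all 250 bases outside its exons. None of the letters searched was found in that window. Of the 250 bases before the RefSeq start that lies inside the gene's span, 97 are outside its GENCODE exons and are printed. Capitals mark GGCGCC, letters read by SMAD proteins of the bone morphogenetic protein pathway.
Dll1, chr17:15375977-15376073, minus strand: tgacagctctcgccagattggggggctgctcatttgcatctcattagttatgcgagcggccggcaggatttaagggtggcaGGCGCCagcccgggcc
GGCGCC lay 169 bases before the start and occurs in 9.59% of all promoters of this length. AGGTCA, letters read by nuclear receptors such as those for retinoic acid, lay 109 bases before the start and occurs in 14.02% of all promoters. It lies outside the printed stretch, among the 153 bases left out because a GENCODE exon of Dll1 begins there. The share of all promoters was counted over whole windows, without leaving out exons. Neither motif was found in the windows of the other 7 genes or in the window at the second RefSeq start of Dll1.

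Jag1 (ENSMUSG00000027276, chromosome 2, 137081456 to 137116644), the ligand by which germ cells signal to Sertoli cells, was at 105, 91.5 and 87.2 CPM at 0 h, 42.1, 41.3 and 32.8 CPM at 24 h, and 38.4, 42.3 and 37.3 CPM at 48 h. It stepped down once and then stayed within the same range. The fall was 2.44-fold at 24 h (log2 fold change -1.29 ± 0.15, adjusted p = 0.000827) and 2.40-fold at 48 h (-1.26 ± 0.13, adjusted p = 0.000364, edgeR's quasi-likelihood test, Benjamini-Hochberg). Between 24 h and 48 h the log2 difference was 0.029 ± 0.10.

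Jag2 (ENSMUSG00000002799, chromosome 12, 112907819 to 112929776), the other Jagged ligand, was at 109, 133 and 159 CPM at 0 h, 193, 174 and 169 CPM at 24 h, and 115, 133 and 108 CPM at 48 h. All 24 h libraries lay above all others, while 0 h and 48 h overlapped. From 24 h to 48 h it fell, with a log2 fold change of -0.58 ± 0.08 (edgeR, Benjamini-Hochberg adjusted p = 0.00153). The difference of 0.42 ± 0.14 between 0 h and 24 h was not called (edgeR, adjusted p = 0.0698), and it was called without 0 h replicate 3 (0.58, adjusted p = 0.00739) and under 4 of the other alternatives, with values from 0.35 to 0.54.

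Dll4 (ENSMUSG00000027314, chromosome 2, 119325784 to 119335962), a Delta-like ligand known from endothelium, was at 2.70, 3.61 and 3.67 CPM at 0 h, 2.01, 1.28 and 2.14 CPM at 24 h, and 1.69, 1.19 and 1.10 CPM at 48 h. All libraries at 24 h and 48 h lay below those at 0 h. The level was 2.50-fold lower at 48 h (log2 fold change -1.32 ± 0.27, edgeR, Benjamini-Hochberg adjusted p = 0.00955). At 24 h the difference was -0.87 ± 0.28 (edgeR, adjusted p = 0.0573), and it was called without 0 h replicate 1 (-0.99, adjusted p = 0.0399) by DESeq2 (-0.88, Benjamini-Hochberg adjusted p = 0.0403), with all 9 libraries in 1 fit and with the offsets for GC content and length.

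By FPKM, Jag2 held 52.5% ± 6.70 (SD, n = 3) of the summed ligand level at 0 h, 75.2% ± 0.838 at 24 h and 64.1% ± 1.00 at 48 h. Jag1 held 44.8% ± 6.95, 19.5% ± 1.78 and 25.5% ± 0.717. The share of Dll1 went from 0.322% ± 0.0862 to 3.90% ± 0.607 and 9.08% ± 0.908, past that of Dll4, which was at 2.37% ± 0.298, 1.38% ± 0.377 and 1.31% ± 0.357. The Jagged ligands thus still made up most of the ligand transcripts at 48 h. The summed FPKM of the ligands was 36.4 ± 2.25 at 0 h, 34.1 ± 2.46 at 24 h and 26.6 ± 2.56 at 48 h.

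Of the target genes, Hes1 fell and Hey1 did not pass the test. Hes1 (ENSMUSG00000022528, chromosome 16, 30064384 to 30067796), a repressor of transcription and the best known target of Notch, was at 65.3, 61.6 and 90.8 CPM at 0 h, 33.7, 34.8 and 38.1 CPM at 24 h, and 26.9, 31.1 and 29.4 CPM at 48 h. The 3 time points did not overlap, and the 0 h libraries were the most spread. Hes1 was 2.04-fold lower at 24 h (log2 fold change -1.03 ± 0.16, adjusted p = 0.00356) and 2.48-fold lower at 48 h (-1.31 ± 0.17, adjusted p = 0.00106, edgeR's quasi-likelihood test, Benjamini-Hochberg). The further fall of 0.28 ± 0.08 from 24 h to 48 h was called (edgeR, adjusted p = 0.0375), but it was lost under 5 of the 6 fits without 1 library, all but the fit without 48 h replicate 2, and under DESeq2 (Benjamini-Hochberg adjusted p from 0.0522 to 0.186 without 1 library, and 0.0682 with DESeq2). It was also lost with all 9 libraries in 1 fit and with the offsets for GC content and length (edgeR, Benjamini-Hochberg adjusted p = 0.326 and 0.0714).

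Hey1 (ENSMUSG00000040289, chromosome 3, 8663359 to 8667256), a related repressor, ran from 13.95 to 19.4 CPM at 0 h, with 14.7 between them, and was at 19.0, 19.4 and 19.0 CPM at 24 h, and 20.8, 22.4 and 18.8 CPM at 48 h. The highest 0 h library lay within the range of the co-cultured libraries. Its log2 fold changes were 0.25 ± 0.15 and then 0.37 ± 0.16 (edgeR, Benjamini-Hochberg adjusted p = 0.271 and 0.118). It was called when 0 h replicate 3 was left out, at 0.43 and 0.55 (edgeR, adjusted p = 0.0303 and 0.0177), and at 48 h with the offsets for GC content and length (0.54, adjusted p = 0.00789).

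**Figure D4:**
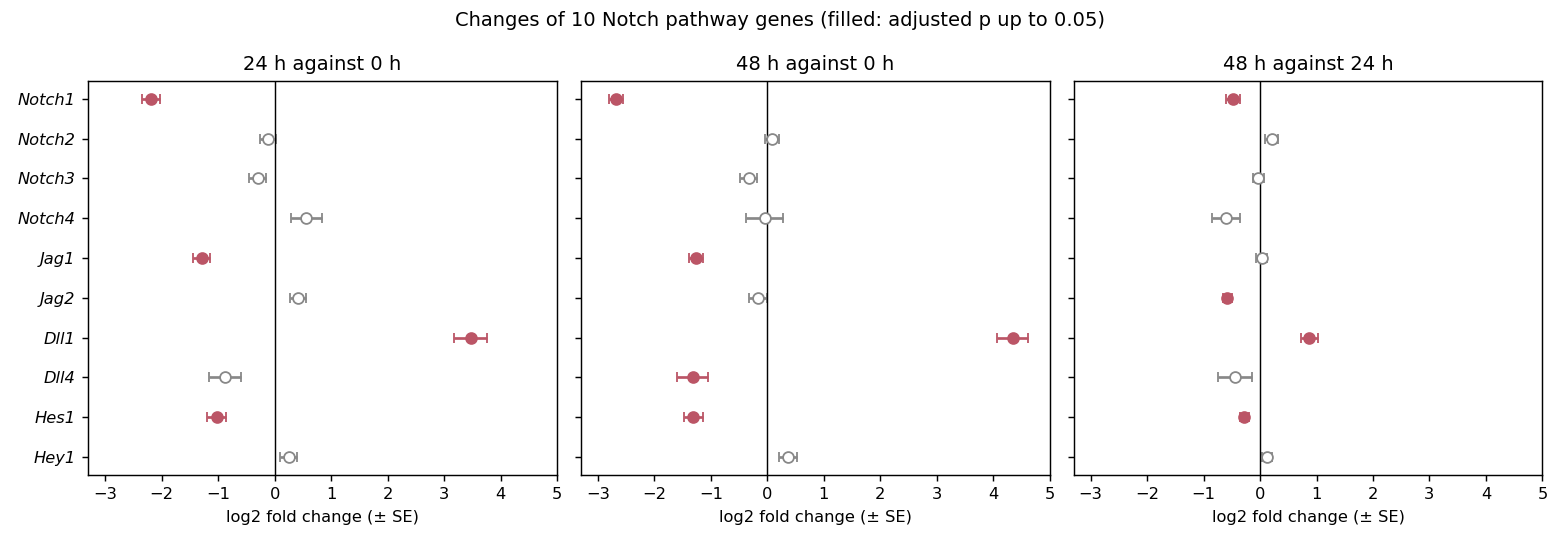
Log2 fold change ± standard error of the 10 genes in the 3 comparisons, with filled points for an adjusted p of up to 0.05 in edgeR's quasi-likelihood test. Dll1 lies at 3.47 and 4.34 against 0 h and is the only filled point right of 0 in these panels, while Notch1 lies at -2.19 and -2.68.

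Set in order by FPKM, the 10 genes at 0 h were led by Hes1 (35.6 ± 7.80, SD, n = 3), followed by Jag2 (19.2 ± 3.59), Jag1 (16.2 ± 1.60) and Notch1 (15.6 ± 1.67), whose libraries overlapped from neighbour to neighbour. Notch2 (7.81 ± 0.648) lay apart from both of its neighbours, and Hey1 (4.91 ± 0.908) overlapped with Notch3 (3.77 ± 0.630). Dll4 (0.864 ± 0.141), Notch4 (0.265 ± 0.0775) and Dll1 (0.118 ± 0.0366) closed the order, each apart from the next. At 24 h the order was Jag2 (25.7 ± 1.80), Hes1 (17.4 ± 1.13), Notch2 (7.20 ± 1.08), Jag1 (6.65 ± 0.887), Hey1 (5.85 ± 0.0675), Notch1 (3.41 ± 0.622), Notch3 (3.06 ± 0.287), Dll1 (1.32 ± 0.153), Dll4 (0.470 ± 0.121) and Notch4 (0.392 ± 0.0391). There, Notch2 overlapped with Jag1, Jag1 with Hey1, Notch1 with Notch3 and Dll4 with Notch4.

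At 48 h, Jag2 (17.05 ± 1.87) again lay above Hes1 (14.3 ± 1.03), followed by Notch2 (8.27 ± 0.981), Jag1 (6.75 ± 0.453) and Hey1 (6.32 ± 0.560). The libraries of Jag1 and Hey1 overlapped. Notch3 (2.98 ± 0.261) came next, and Notch1 (2.43 ± 0.210) could not be separated from Dll1 (2.41 ± 0.343), so the most abundant receptor of 0 h was level with the ligand that had stood last. With the longest transcript as the length, Notch1 was at 3.64 and Dll1 at 2.84 FPKM at 48 h, so this neighbourhood depends on the length used. Dll4 (0.345 ± 0.0825) and Notch4 (0.257 ± 0.0716) overlapped.

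The genes whose log2 CPM followed the 3 most variable of the 10 genes most closely over the 9 libraries were picked among 11968 genes with a mean of at least 5 CPM. For Dll1 they were Cited1, Mmp2 and Ccno (Pearson's r of 0.998, 0.9945 and 0.9945). Mmp2, a matrix metalloproteinase of connective tissue, went from 21.5 to 77.6 and 112 CPM. For Notch1 they were Plvap, Pcdh1 and Tmem132c (r of 0.998, 0.998 and 0.997), and Plvap, a protein of endothelial fenestrae, went from 59.5 to 1.63 and 0.872 CPM. Pcdh1 went from 167 to 7.515 and 4.27 CPM, and Tmem132c from 49.0 to 8.62 and 6.11 CPM. The 6 endothelial markers did not move as a group, and of the 5 tested 2 were higher (Tek and Tie1) and 2 lower (Kdr and Pecam1) at both times against 0 h. Their sum, led by Kdr, was lower with time, at 43.3 to 48.1 CPM at 0 h, 15.1 to 19.6 at 24 h and 12.8 to 13.5 at 48 h, but Emcn had 0 counts in all 0 h libraries and Tie1 a mean of 0.212 CPM there. The part of endothelial transcripts in the fall of Notch1 was not tested. For Hes1 they were Usp4, Erg28 and Cct2 (r of 0.9945, 0.992 and 0.9905). The 9 points fall into 3 time points, so these values mainly describe the steps between them.

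The other genes of the pathway were read as 8 groups by role, with 54 genes in all, of which 52 were tested and Hes2 and Hes3 were too low. At 24 h, 16 of 52 were called, 6 higher and 10 lower, which is 30.8% beside 25.5% of all genes. At 48 h against 0 h, 22 were called, 8 higher and 14 lower (42.3% beside 31.6%), and between 24 h and 48 h 12 were called, 4 higher and 8 lower (23.1% beside 21.3%). Without 0 h replicate 2 or without each of the 24 h replicates in turn, the count at 24 h dropped to between 5 and 7 genes, and at 48 h it dropped to between 12 and 14 without 0 h replicate 2 or any 48 h replicate. Between 24 h and 48 h it dropped to 7 without 48 h replicate 1. Called under every alternative were 5 genes at 24 h (Dtx3, Dtx4, Kat2b, Lfng and Maml3), 12 at 48 h against 0 h (these 5 with Dlk1, Dll3, Dtx1, Hes7, Heyl, Neurl1b and Pofut1) and 4 between 24 h and 48 h (Dlk1, Dtx1, Lfng and Neurl1b). Every other call among these genes was lost under at least 1 alternative.

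**Figure D5:**
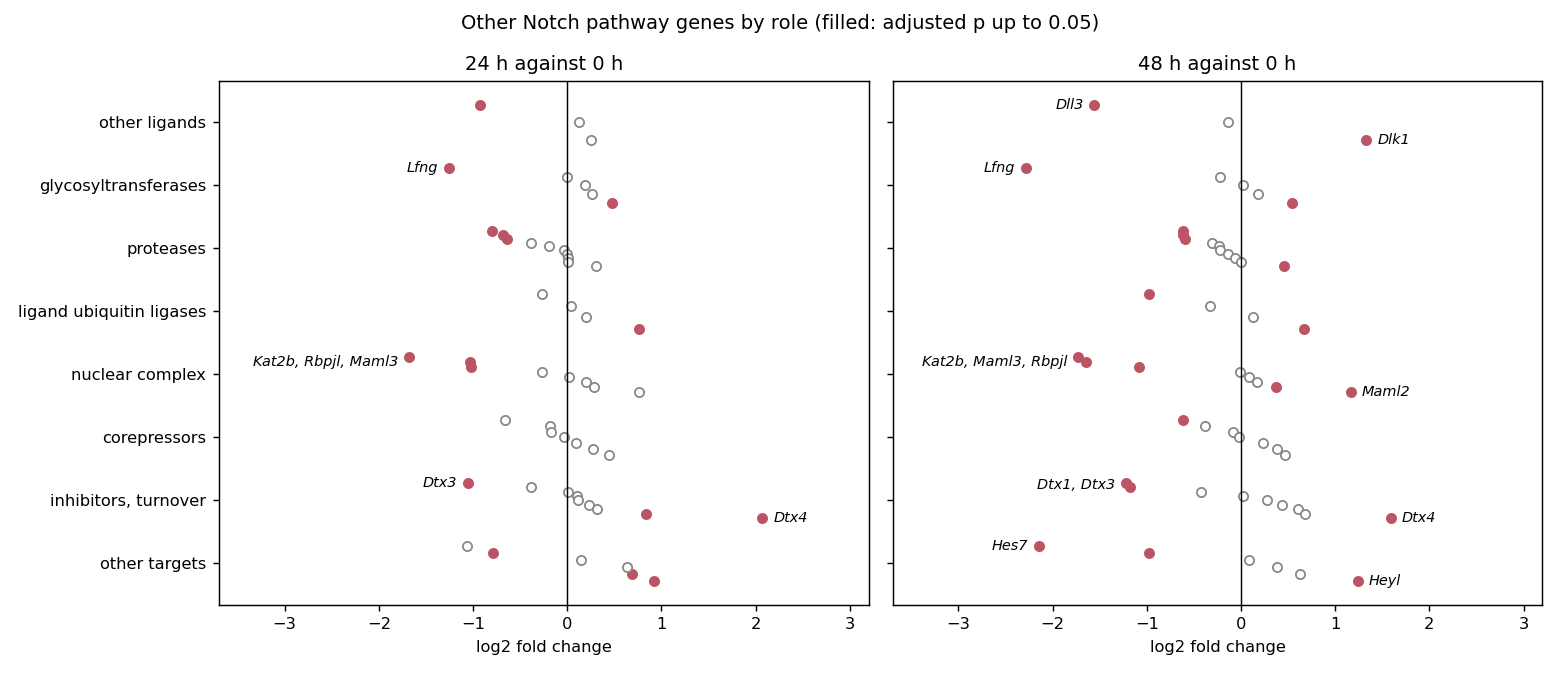
Log2 fold change of the 52 other Notch pathway genes tested, by role, for 24 h and 48 h against 0 h, with filled points for an adjusted p of up to 0.05 in edgeR's quasi-likelihood test and names where the change was also at least 2-fold. At 24 h, Dtx4 lies farthest to the right (2.07) and Kat2b farthest to the left (-1.68), and at 48 h Lfng lies at -2.28.

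Among the other ligands, Dlk1, a Delta-like protein that lacks the domain for receptor activation and the most abundant of its group, was at 45.5, 41.6 and 59.9 CPM at 0 h and at 56.5, 60.3 and 57.7 CPM at 24 h, and then at 118, 133 and 118 CPM at 48 h. Its 48 h libraries lay above all others, with a log2 fold change of 1.33 ± 0.15 against 0 h and 1.08 ± 0.07 against 24 h (edgeR, Benjamini-Hochberg adjusted p = 0.000681 and 6.64e-05). Dll3, a ligand that acts against Notch in the same cell, fell by 1.56 on the log2 scale at 48 h (standard error 0.30, edgeR, adjusted p = 0.00696), from a mean of 3.74 to 1.26 CPM. Dlk2 was not called.

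Of the 5 glycosyltransferases that modify the receptors, Lfng, the Fringe enzyme that changes which ligands a Notch receptor responds to, stepped down at each time. It was at 25.0, 34.3 and 41.5 CPM at 0 h, 13.8 to 14.3 CPM at 24 h, and 6.56, 7.59 and 6.45 CPM at 48 h. No time point overlapped with the next, and the log2 fold changes were -1.26 ± 0.18 at 24 h, -2.28 ± 0.20 at 48 h and -1.02 ± 0.11 between them (edgeR, Benjamini-Hochberg adjusted p = 0.00231, 0.000193 and 0.00055). Pofut1, which adds the fucose that Fringe extends, rose by 0.48 and 0.55 against 0 h (edgeR, adjusted p = 0.025 and 0.00925). Poglut1, the most abundant of the group (14.9 FPKM over all libraries), Mfng and Rfng were not called in any comparison.

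Among the proteases that process the receptors, Adam17, Aph1b and Aph1c were lower at 24 h (log2 fold changes of -0.68, -0.64 and -0.80) and at 48 h (-0.62, -0.61 and -0.60). These calls were lost under 4, 5 and 1 of the 6 fits without 1 library at 24 h and under 5, 5 and 4 at 48 h. The Aph1b and Aph1c genes are close paralogs, and how reads were divided between them is uncertain. Psenen, the γ-secretase subunit with the highest FPKM of the group, was at 31.9, 32.0 and 31.9 FPKM at the 3 times and was not called. Of the 4 ubiquitin ligases that act on ligands, Mib2 was higher at 24 h and 48 h (0.77 and 0.67) and Neurl1b was lower at 48 h against both other times (-0.97 and -0.70). The calls of Mib2 were lost under 4 of the 6 fits without 1 library at each time, and those of Neurl1b held under every alternative. Neurl1a was lower at 48 h than at 24 h (-0.53), and Mib1, the most abundant of them, was at 11.8, 12.1 and 12.9 FPKM and was not called.

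In the nuclear complex, Rbpj itself was at means of 113, 115 and 112 CPM, and its log2 difference from 0 h was 0.024 ± 0.16 at 24 h and -0.0092 ± 0.16 at 48 h. Kat2b, an acetyltransferase of the complex, was at 52.8, 42.7 and 20.5 CPM at 0 h and at 11.6 to 12.2 CPM in the 6 co-cultured libraries. All of these lay below the lowest 0 h library, and the log2 fold changes were -1.68 ± 0.33 and -1.73 ± 0.33 (edgeR, Benjamini-Hochberg adjusted p = 0.00876 and 0.00671). Maml3, a Mastermind coactivator, was at 20.6, 22.7 and 17.5 CPM at 0 h, 11.1, 10.5 and 8.43 CPM at 24 h, and 6.25, 6.18 and 6.90 CPM at 48 h. It fell at each step, by 1.02, 1.65 and 0.63 on the log2 scale for 24 h and 48 h against 0 h and 48 h against 24 h.

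The Mastermind gene Maml2 went the other way, with 15 to 26 reads per library at 0 h and 46 to 57 at 48 h. Its log2 fold change of 1.16 ± 0.34 (edgeR, Benjamini-Hochberg adjusted p = 0.035) was lost under 5 of the 6 fits without 1 library. Maml1, at a mean of 12.5, 14.3 and 14.045 FPKM at the 3 times, was not called. Rbpjl, a paralog of Rbpj, was at means of 3.08, 1.51 and 1.45 CPM and lower at both times (-1.03 and -1.08), a call lost under 4 and 3 of the 6 fits without 1 library. Snw1 was higher at 48 h against 0 h (0.37) and Ep300 at 48 h against 24 h (0.36). These calls were lost under 4 and 2 of the 6 fits without 1 library. They were also lost under 3 and 1 of the 8 other alternatives, with Snw1 as low as 0.070. Among the corepressors, Tle3 was at means of 39.9, 54.0 and 51.7 FPKM and was not called.

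Among the 9 inhibitors and regulators of receptor turnover, the Deltex genes, which encode ubiquitin ligases that bind Notch, moved in different directions. Dtx4 was at 4.06, 4.85 and 6.24 CPM at 0 h, 24.9, 20.2 and 18.7 CPM at 24 h, and 14.6, 15.7 and 15.2 CPM at 48 h, highest in the 24 h libraries. Above 0 h it rose by 2.07 ± 0.20 at 24 h and 1.59 ± 0.18 at 48 h (edgeR, Benjamini-Hochberg adjusted p = 0.000376 and 0.000687), and from 24 h to 48 h it fell by 0.48. Dtx1 was at 11.6, 15.1 and 17.9 CPM at 0 h, 17.3, 16.9 and 18.1 CPM at 24 h, and 6.51, 6.62 and 5.90 CPM at 48 h. It fell late, by 1.22 against 0 h and by 1.45 against 24 h on the log2 scale (SE 0.18 and 0.11, edgeR, adjusted p = 0.0024 and 0.000107). Dtx3 fell by 1.05 at 24 h and by 1.18 at 48 h, and Dtx2 was not called.

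Numbl, a paralog of the Notch inhibitor Numb, was higher at 24 h (0.84) and lower at 48 h than at 24 h (-0.40). Itch and Nedd4, ubiquitin ligases of the HECT class, were higher at 48 h than at 24 h (0.57 and 0.29), and Nedd4 was the most abundant gene of this group at 44.5 FPKM over all libraries. Numb and Fbxw7 were not called.

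Of the other Hes and Hey family genes and Nrarp, 6 were tested, and they did not move as a group. They were listed from general knowledge, and whether each of them responds to Notch in these cells was not tested. Heyl, a Hey family gene known from smooth muscle, was at 2.64, 4.00 and 3.57 CPM at 0 h, 6.58, 6.45 and 6.39 CPM at 24 h, and 7.33, 8.96 and 7.91 CPM at 48 h. All co-cultured libraries lay above those at 0 h, and the log2 fold changes were 0.92 ± 0.20 and 1.24 ± 0.21 (edgeR, Benjamini-Hochberg adjusted p = 0.0147 and 0.0037). The myoid markers rose over the same times, and their part in it was not tested. Nrarp, a target that limits Notch signals, fell by 0.79 ± 0.20 and 0.98 ± 0.24 (edgeR, adjusted p = 0.026 and 0.0186), and these calls were lost under 4 and 3 of the 6 fits without 1 library. Hes7, a gene of the segmentation clock, fell by 2.15 at 48 h (standard error 0.39, edgeR, adjusted p = 0.00548), from 28 to 78 reads per library to 11 to 20. Hes6, the most abundant of this group at 10.1 FPKM over all libraries, was higher at 24 h (0.69) and lower at 48 h than at 24 h (-0.61), while Hes5 and Hey2 were not called.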

How the data were processed

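The RNA-seq libraries of the EGFP-SSCs were prepared by the authors from poly-A RNA. Per the submitters' processing notes, fastp, HISAT2 and featureCounts and the build GRCm38 were used, and versions, the strand setting and the annotation release are not given in the sources used here. The authors deposited counts, whole numbers of reads per Ensembl gene, without normalization. Library totals ran from 16825251 to 22201892 counts, and counting precision follows from the counts printed. Replicates differed by more than sampling noise (chi-square over degrees of freedom from 7.13 to 81.4, highest between 0 h libraries), and each was used as 1 sample. Nothing states that the replicates came from separate thaws or cultures, so p-values measure the spread between these samples. Symbols, positions and exons came from GENCODE M21 (GRCm38), which held 45229 of the 46078 identifiers, and promoters from RefSeq (GRCm38.p6).

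Each comparison used the 6 libraries of its time points, filterByExpr and TMM in edgeR 4.0.16 (R 4.3.3). Its quasi-likelihood test was two-sided, and p-values were adjusted after Benjamini-Hochberg over all genes tested, with a threshold of 0.05. CPM were TMM-normalized over the 9 libraries. Motif letters were searched in the 250 bases before each RefSeq start. Alternatives were DESeq2 1.42.0, its size factors or library size alone in edgeR, a block for the replicate number, 1 fit of all 9 libraries, leaving out each library, no filter, a minimum of 10 counts per library, the longest transcript as length and, added after seeing the data, offsets for GC content and transcript length. The fits were tested on simulated data. There, edgeR recovered 44 of 100 changes with a log2 size of 1 at 24 h against 0 h. It recovered 37 of 98 at 48 h against 0 h and 76 of 100 between 24 h and 48 h. With a log2 size of 2 it recovered 83 of 98, 79 of 98 and 95 of 99. A gene that was not called may therefore still have changed. The 10 genes and all lists were chosen with earlier results of these data known, the lists from general knowledge. Named were the 10 genes, other pathway genes by role with all called at 2-fold or more and the most abundant of each role, the 3 genes most like each of the 3 most variable of the 10, the most abundant marker of each list, and, chosen after their values were seen, markers at or near 0 and Sox9, Tek, Tie1 and Pecam1. Figures were drawn with matplotlib 3.10.9. Results that need items withheld from this text are not reported here.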

Additional observations from a re-analysis of the deposited data

How the results depend on the processing

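Against 0 h, the calls of Notch1, Jag1, Dll1 and Hes1 at both times and of Dll4 at 48 h held under each alternative that gave a value, as did those of Jag2 and Dll1 between 24 h and 48 h. The filter of 10 counts in every library removed Dll1 from both comparisons with 0 h. With offsets for GC content and length, 7 of the 10 genes were called at 24 h. The number of all genes called at 24 h moved too. It ran from 3007 to 6325 over the 8 alternative fits that kept every library, beside 4494 in the main fit. With all 9 libraries in 1 fit, 1043 genes, 2 of the 10 and 5 of the 52 other pathway genes were called between 24 h and 48 h.

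Directions turned only for differences that were not called. Notch4 at 48 h against 0 h, at -0.041, was 0.071 with library size alone, 0.090 with the offsets and -0.28 to 0.12 without 1 library. Notch3 between 24 h and 48 h was 0.13 with the offsets and -0.081 to 0.031 without 1 library, above 0 without 24 h replicate 1 or 48 h replicate 3. Notch2 at 48 h was -0.0079 to 0.15, below 0 without 48 h replicate 2, and Jag1 between 24 h and 48 h was -0.057 to 0.084, below 0 without 24 h replicate 3 or 48 h replicate 2. The cause was not tested. Scaling by library size alone put the median log2 fold change over all genes at 0.118 at 24 h and 0.1265 at 48 h, from 0.0052 and 0.017.

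Without 1 library at a time, 2607 to 6023 genes, 4 to 6 of the 10 and 5 to 21 other pathway genes were called at 24 h. At 48 h these were 3471 to 7116, 5 to 6 and 12 to 26, and between 24 h and 48 h 1857 to 4356, 2 to 4 and 7 to 14. Same-numbered libraries did not pair (correlations of their deviations from -0.281 to 0.194). With the replicate number as a block, other pathway calls numbered 8 at 24 h and 14 at 48 h, beside 16 and 22 in the main fits. Calls over all genes moved as well over the alternative fits that kept every library. They ran from 3007 to 6325 at 24 h and from 4013 to 7593 at 48 h, beside 4494 and 5602 in the main fits. With the block, the call of Hes1 between 24 h and 48 h was lost (edgeR, Benjamini-Hochberg adjusted p = 0.0655). No other call among the 10 genes changed with the block. Dll1 at 0 h rests on 7 to 13 counts per library, which limits how precisely its fold is known.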
